A study of Mus musculus with 15 samples.

Results

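Autosomal genes of cardiomyocyte nuclei were compared between female and male mouse ventricles under the wild-type label of a series on the progesterone receptor. The table of counts holds 55536 genes, of which 51229 lie on chromosomes 1 to 19, and 16876 of those had enough reads to be tested. The libraries compared are 3 female and 4 male ones with the genotype label Pgr_WT, and the series also holds 4 female and 4 male libraries labelled Pgr_KO. All 15 were made from nuclei of whole ventricular muscle sorted for Pcm1, a centriolar satellite protein that marks cardiomyocyte nuclei, and ribosomal RNA was removed before sequencing. The series names them as 2 mouse strains, and its title sets out a sex-specific role of the progesterone receptor in heart maturation. No age is given beyond an unexplained range in the tissue label. No label says that replicates came from separate animals, so p-values measure only the spread between these libraries.

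Every statement on genotype is by label alone, because Pgr reads ran against the labels. Pgr, the gene of the progesterone receptor, had 0 to 7 reads in each library labelled wild type and 169 to 981 in each one labelled knockout. The comparison of females with males described here was therefore made in libraries labelled wild type that held almost no Pgr reads. The sexes followed their labels on the sex chromosomes, but 2 libraries also held some reads of the other sex. The female replicate 2 held reads of Y-linked genes at 3.07% of the male mean, and the male replicate 2 held Xist at 3.5% of the female mean. Total counts were 24.4, 28.6 and 51.4 M in females and 61.5, 43.4, 49.2 and 91.7 M in males. Pecam1, an endothelial adhesion gene, was at 43.7 and 47.6 CPM in replicate 1 of each sex and at 2.62 to 8.06 CPM in the other 5 libraries, and a term for that split was part of the fit. Markers of the sorted cells were present throughout: the 15 cardiomyocyte markers, all tested, summed to 84500 to 89800 CPM in females and 82000 to 99500 CPM in males.

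Both sexes carry the same autosomes, and differences in their autosomal transcripts can follow from gonadal hormones or from genes of the sex chromosomes. Each heartbeat is driven by calcium that enters through the L-type channel and is released from the sarcoplasmic reticulum. It is then taken up again by the reticulum pump, and the rest leaves the cell through sodium-calcium exchangers and plasma membrane calcium pumps. Noradrenaline and adrenaline adjust this cycle through beta and alpha1 adrenergic receptors.

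A single autosomal gene differed between the sexes in the quasi-likelihood test of edgeR at an adjusted p below 0.05. It was Atp2b2, which encodes a plasma membrane calcium pump (PMCA2) known from neurons and sensory hair cells, and it was higher in males. The gene lies on the minus strand of chromosome 6 (GRCm38, 113743831 to 114042613). The reference table lists promoters for 3 of its transcript starts, shown here because Atp2b2 carries the main result. Each window runs from 250 bases before to 50 bases after a start (RefSeq, GRCm38.p6). Capitals mark TGTTCT, the reverse complement of AGAACA, a half-site known for androgen, progesterone and glucocorticoid receptors. The windows are chr6:114042031-114042330, chr6:113934632-113934931 and chr6:113891490-113891789, all on the minus strand.
Atp2b2 start 1: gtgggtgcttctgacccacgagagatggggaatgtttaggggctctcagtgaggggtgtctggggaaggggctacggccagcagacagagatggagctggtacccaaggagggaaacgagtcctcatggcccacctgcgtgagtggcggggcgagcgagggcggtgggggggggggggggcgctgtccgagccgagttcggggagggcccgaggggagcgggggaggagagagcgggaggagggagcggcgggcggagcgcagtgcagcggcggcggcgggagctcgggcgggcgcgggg
Atp2b2 start 2: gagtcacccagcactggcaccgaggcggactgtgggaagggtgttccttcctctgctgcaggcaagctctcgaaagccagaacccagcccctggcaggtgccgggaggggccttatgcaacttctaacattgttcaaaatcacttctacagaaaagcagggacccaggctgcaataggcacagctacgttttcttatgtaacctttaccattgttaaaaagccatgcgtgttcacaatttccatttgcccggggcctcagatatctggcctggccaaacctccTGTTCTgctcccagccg
Atp2b2 start 3: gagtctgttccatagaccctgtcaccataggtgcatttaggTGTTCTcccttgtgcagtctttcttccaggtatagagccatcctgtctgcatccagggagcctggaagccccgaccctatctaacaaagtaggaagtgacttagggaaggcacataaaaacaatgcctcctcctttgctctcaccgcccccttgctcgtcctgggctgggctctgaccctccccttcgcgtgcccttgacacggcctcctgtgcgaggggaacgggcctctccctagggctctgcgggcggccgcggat
Start 1 holds no match, start 2 holds 1 at base 284 of the window, and start 3 holds 1 at base 42. On either strand, AGAACA occurs in 19% of 31396 autosomal promoter windows of this length. A match is a run of letters and not a binding site. Counts were taken over whole gene bodies, so they do not say which start was used.

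Atp2b2 stood at 6.06, 3.97 and 3.27 CPM (read counts scaled to library size) in the female libraries labelled wild type. In the male ones it stood at 19.6, 19.2, 15 and 9.33 CPM. The highest female library lay below the lowest male one. The means were 4.43 ± 1.45 CPM (SD, n = 3) and 15.8 ± 4.77 CPM (SD, n = 4), and males were 3.56-fold higher. The female minus male difference was -1.89 ± 0.25 on the log2 scale (SE, edgeR adjusted p = 0.0365 over all tested genes). In bulk libraries, fewer cells with a transcript and less of it per cell cannot be told apart.

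The difference was present on both sides of the split by Pecam1. Among libraries with low Pecam1 (2 female, 3 male) the ratio of means was -2.0 on the log2 scale, and between the 2 libraries with high Pecam1 it was -1.69. The 8 libraries labelled knockout are other libraries, although the joint fit drew its spread and content term from all 15, so that the SE and p above are not independent of them. There Atp2b2 was at 7.96, 4.13, 5.1 and 4.41 CPM in females, against 22.8, 27.5, 21.9 and 18.6 CPM in males, again with no overlap. Fitted on their own they gave -2.05 ± 0.2 (SE, edgeR adjusted p = 0.00553). The difference between the labels was 0.18 ± 0.33 (edgeR adjusted p = 0.929).

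Genes that overlap Atp2b2 held few reads: Gm44167 and Gm15082 had 0 reads, and Gm15083, on the opposite strand across the first start, had 36 reads in the 7 libraries against 4046 for Atp2b2. Among the tested genes within 1 Mb, Mtmr14, a lipid phosphatase gene, had a difference of -0.45 ± 0.18 (edgeR adjusted p = 1). The direction of the Atp2b2 difference held in all 20 alternative settings, with values from -2.05 to -1.73, and the call held in 11. The adjusted p was 0.169 in the 7 libraries alone, 0.267 in the 9 of 15 with low Pecam1, 0.308 without the content term and 0.0513 with 1 surrogate variable, and it was 0.208, 0.0797 and 0.365 without female replicates 1, 2 and 3 and 0.177 and 0.115 without male replicates 1 and 3.

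**Figure D1:**
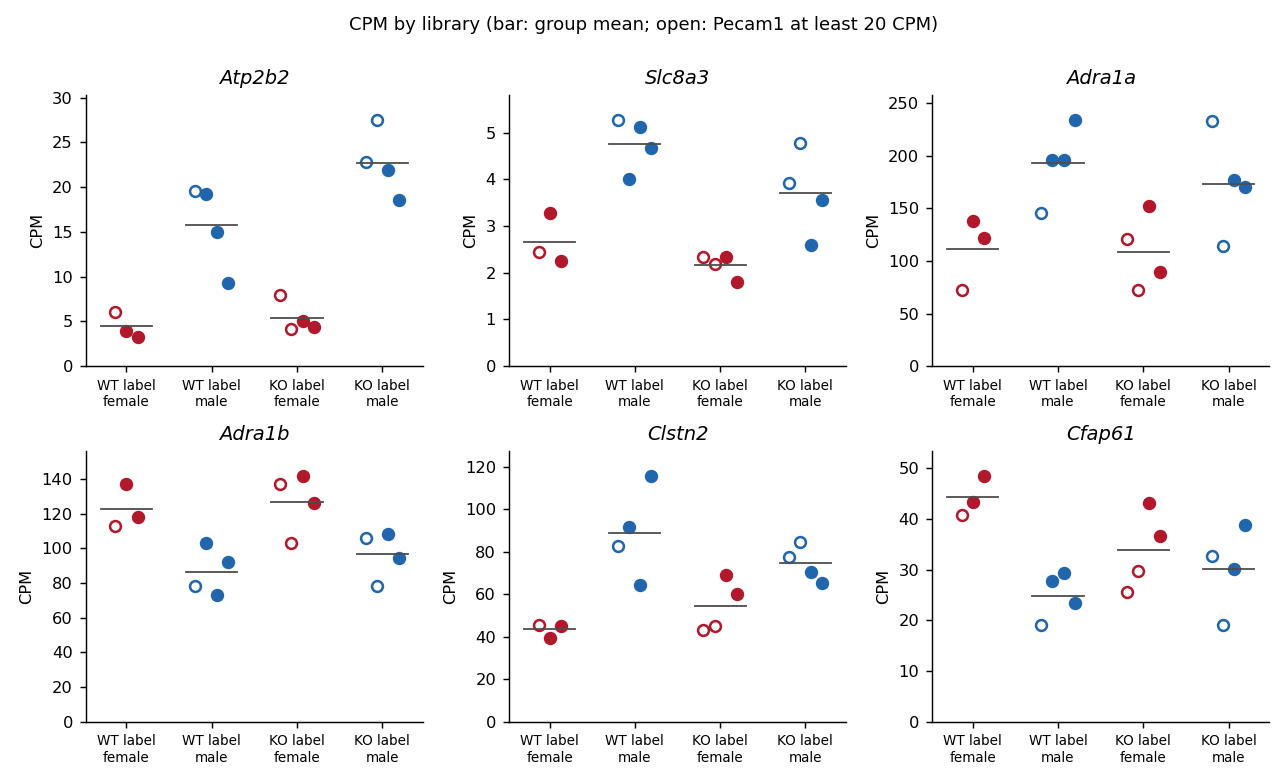
CPM of 6 genes in each library, by genotype label and sex, on linear axes that start at 0; bars are group means and open circles are libraries with Pecam1 of at least 20 CPM. Atp2b2 lies at 3.27 to 6.06 CPM in females and 9.33 to 19.6 CPM in males under the wild-type label, and in separate ranges under the knockout label.

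Across all 16876 tested autosomal genes, 0 were called as higher in females (0%) and 1 as higher in males (0.00593%). At an unadjusted p below 0.05, edgeR had 166 genes higher in females (0.984%) and 330 higher in males (1.96%), 2.94% together. With no difference in any gene about 844 would pass that threshold, more than did here. With DESeq2 4 genes were called as higher in females and 8 as higher in males, and limma-voom called 0 and 1. The median difference was -0.009 and 47.9% of genes had a positive value. The split of small p-values by direction depends on scaling: with RLE size factors it was 243 higher in females and 272 higher in males. The median SE was 0.221 on the log2 scale. Even Xist, at 1340, 1990 and 1270 CPM in females, against 2.64, 54.2, 1.11 and 0.335 CPM in males, had an edgeR adjusted p = 0.285.

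DESeq2 called 12 genes, of which 11 missed the threshold in edgeR and are given as values. Beside Atp2b2 they include a second gene of calcium export, Slc8a3, which encodes the sodium-calcium exchanger NCX3 (chromosome 12, 81197915 to 81333180, minus strand). Slc8a3 was at 2.45, 3.28 and 2.26 CPM in females, against 5.27, 4.01, 5.12 and 4.66 CPM in males. The ranges did not overlap, and the difference was -0.85 ± 0.20 (edgeR adjusted p = 0.623, DESeq2 adjusted p = 0.0489). Under the knockout label it was at 2.34, 2.19, 2.33 and 1.8 CPM in females, against 3.92, 4.77, 2.6 and 3.56 CPM in males, without overlap, with a difference of -0.74 ± 0.18 (edgeR adjusted p = 0.28 in those 8 libraries). The single promoter listed for Slc8a3, chr12:81333131-81333430 on the minus strand, is shown beside those of the pump because both genes export calcium and both had lower values in females. It holds neither AGAACA nor AGGTCA, the latter a half-site known for oestrogen and other nuclear receptors and present in 16.3% of autosomal windows.
Slc8a3 start 1: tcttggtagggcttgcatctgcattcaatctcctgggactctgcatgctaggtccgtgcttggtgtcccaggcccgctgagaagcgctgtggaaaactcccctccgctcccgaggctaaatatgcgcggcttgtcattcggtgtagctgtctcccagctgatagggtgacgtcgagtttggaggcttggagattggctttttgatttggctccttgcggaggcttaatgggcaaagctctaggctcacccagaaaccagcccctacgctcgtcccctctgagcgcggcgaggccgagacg
No conclusion on either receptor family follows from the absence of these letters in the window.

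Among genes with higher values in males, Clstn2 encodes calsyntenin 2, a membrane protein of the cadherin superfamily. It was at 45.7, 39.5 and 45.3 CPM in females, against 82.7, 91.9, 64.3 and 116 CPM in males. The male replicate 4 was the highest and no library of one sex reached into the range of the other. Its difference was -1.02 ± 0.20 (edgeR adjusted p = 0.177, DESeq2 adjusted p = 0.00388). Tmem150c, a membrane protein gene, was at 4.97, 4.85 and 5.92 CPM in females, against 8.55, 8.49, 8.49 and 8.91 CPM in males, with the male libraries close together. Its difference was -0.70 ± 0.13 (edgeR adjusted p = 0.153, DESeq2 adjusted p = 0.000738).

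Cdh4, which encodes R-cadherin, named here after its values were seen, was at 11.3, 11 and 14.2 CPM in females, against 48.1, 39.1, 28.8 and 33.7 CPM in males. Its difference of -1.62 ± 0.41 had an edgeR adjusted p = 0.811 and a DESeq2 adjusted p = 0.0389. In the libraries labelled knockout it was at 34.8, 6.14, 20.4 and 11.5 CPM in females, against 69.7, 43.2, 59 and 51 CPM in males. The ranges were separate under both labels, while the female libraries labelled knockout were spread widely. Zan, the gene of the sperm protein zonadhesin, was low in all libraries, at 0.153 to 0.272 CPM in females and 0.676 to 1 CPM in males (-1.80 ± 0.36, edgeR adjusted p = 0.214). Gprc5c, an orphan receptor gene, was at 1.79 to 2.95 CPM and 3.7 to 5.14 CPM (-1.15 ± 0.25, adjusted p = 0.453). Nln, the gene of the peptidase neurolysin and named here after its values were seen, differed by only -0.35 ± 0.09, at 21.2 to 22.7 CPM in females and 27.6 to 28.6 CPM in males.

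Among genes with higher values in females, Cfap61, a gene of cilia and flagella, was at 40.8, 43.4 and 48.6 CPM in females, against 19.1, 27.7, 29.3 and 23.4 CPM in males. The ranges were apart, and the difference was 0.88 ± 0.17 (edgeR adjusted p = 0.162, DESeq2 adjusted p = 0.000869). Under the knockout label the sexes overlapped, at 25.7 to 43.1 CPM and 19.1 to 38.9 CPM, and the difference between the labels had an edgeR adjusted p = 0.906. Zfp264, annotated as a transcribed pseudogene whose reads could be shared with related zinc finger genes, was at 2.52, 2.25 and 1.02 CPM in females, against 0.27, 0.545, 0.0943 and 0.367 CPM in males (2.49 ± 0.46, adjusted p = 0.152). Lamb1, a laminin of basement membranes, was at 111, 90.3 and 79.2 CPM in females, against 86.8, 51.9, 48 and 41.2 CPM in males, and the ranges overlapped, since the male replicate 1 lay above the female replicate 3 (0.71 ± 0.18, adjusted p = 0.808). The other 6 of the 10 genes with the smallest p in this direction, leaving out Adra1b below, were predicted or clone-named transcripts with differences of 0.80 to 1.41. DESeq2 called 2 of them. The non-coding RNA gene Gm43332 was at 1.67, 3.97 and 3.29 CPM in females, against 0.991, 1.68, 1.56 and 1.67 CPM in males (edgeR adjusted p = 0.256, DESeq2 adjusted p = 0.00378). E130101E03Rik, also non-coding, was at 2.99, 4.81 and 3.7 CPM in females, against 2.09, 1.47, 2.69 and 1.94 CPM in males (edgeR adjusted p = 0.607, DESeq2 adjusted p = 0.00897). The ranges of the second were apart and those of the first overlapped.

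The 20 genes with the smallest p, 10 in each direction, were looked up in the libraries labelled knockout, fitted on their own. There 18 of 20 had the same sign, against 53.2% of all tested autosomal genes, and 12 had an unadjusted p below 0.05 with the same sign, against 12.7% of all genes in either direction (10.2% in the joint fit of 15 libraries). In 7 of 20 the ranges were separate in the same direction, against 3.09% of all genes in either direction. The differences under the knockout label were smaller than those under the wild-type label for 19 of the 20, all but Atp2b2. Because small p under the wild-type label chose these genes, the choice alone makes smaller differences in other libraries likely. The 19 therefore do not show that the labels differ. The p-values that chose these genes came from the joint fit, whose spread was estimated from the knockout-labelled libraries too, so the 12 are not independent of the choice. Their size under the wild-type label is a description. In the edgeR test of the difference between labels 5 of 20 had an unadjusted p below 0.05, against 4.09% of all genes. That test contains the difference that chose the genes, so the choice alone makes small p-values more likely there. The 5 therefore do not show that the labels differ. In this test edgeR called 0 autosomal genes (0%), and the smallest adjusted p was 0.906. Across all autosomal genes the differences under both labels, each from its own fit, correlated weakly (Pearson 0.171, Spearman 0.113), which describes genes and not independent replicates.

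**Figure D2:**
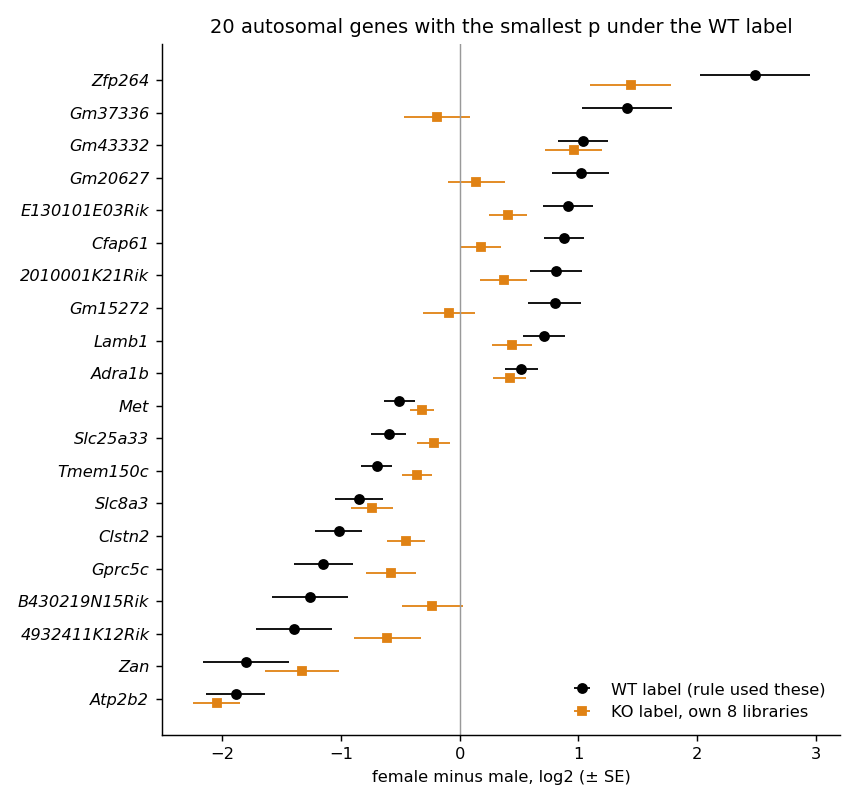
Female minus male differences on the log2 scale with their SE for the 20 autosomal genes with the smallest p under the wild-type label (black circles) and the same genes in the 8 libraries labelled knockout fitted alone (orange squares). The sign was shared by 18 of 20 genes, and Atp2b2 lies near -2 under both labels, at -1.89 and -2.05.

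Separate ranges under both labels gave a second view that uses no model. Under the wild-type label 175 genes had every female library above every male one (1.04%) and 315 had the reverse (1.87%), 2.9% together. With RLE size factors these counts were 230 and 229. Of all tested autosomal genes, 1.9% had every male library higher under the knockout label and 1.19% every female one, 3.09% together. In 24 genes all male libraries were higher under both labels. That is 7.62% of the 315, against the 1.9%, and 7.5% of 320 such genes under the knockout label, against the 1.87%. In 6 genes all female libraries were higher under both labels, 3.43% of 175 (against 1.19%) and 2.99% of 201 (against 1.04%). Another 6 genes had separate ranges in opposite directions. That is 1.22% of 490, against 1.19% and 1.9% of all genes by direction under the knockout label. It is also 1.15% of 521, against 1.04% and 1.87% by direction under the wild-type label. The opposite genes thus lie within the shares over all genes. Leaving out the 3 libraries of either label that held reads of the other sex makes separate ranges more common, as fewer libraries remain. Of 16876 genes, 1260 were then higher in males under the wild-type label and 394 under the knockout label, with 76 under both. For females these counts were 753, 311 and 29, and 33 genes were opposite. The counts under each label rose too, from 315 and 320 in males and 175 and 201 in females. The larger counts under both labels therefore do not show a larger overlap.

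The 24 genes higher in males include Atp2b2, Slc8a3, Cdh4, Zan, Tmem150c and Nln from above. Bdh1, the enzyme that interconverts the ketone bodies acetoacetate and 3-hydroxybutyrate, was at 8.2, 9.73 and 11.1 CPM in females, against 25.7, 12.9, 25.3 and 14 CPM in males (-1.02 ± 0.37, edgeR adjusted p = 1). With the knockout label it was at 9.36, 3.15, 12.8 and 7.76 CPM and 17.2, 12.8, 23.2 and 13.6 CPM (-1.02 ± 0.32). The male values spread over a wide range under both labels while the females stayed below them. The next genes were named after their values were seen. Nqo1, a quinone reductase, was at 12.8 to 13.9 CPM in females and 16.6 to 24 CPM in males, and at 10.8 to 15.8 CPM and 15.9 to 18.5 CPM under the knockout label. Sptbn4, a spectrin of the membrane skeleton, was at 2.02 to 3.65 CPM and 3.94 to 5.81 CPM, and at 2.5 to 3.59 CPM and 3.65 to 6.03 CPM under the knockout label. Xkr6, an XK-related membrane protein gene, was at 49.7 to 55.3 CPM and 65.2 to 72.6 CPM, and at 50.2 to 62.6 CPM and 62.7 to 81.1 CPM.

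On the female side, Slc38a1, a glutamine transporter gene, was at 26.5, 21.8 and 25.5 CPM in females, against 19.8, 20.6, 17.5 and 18.1 CPM in males. In knockout-labelled libraries it was at 25.1, 30.7, 28.7 and 28.3 CPM and 20, 18.1, 18.8 and 17.9 CPM. The gap was narrow under the wild-type label and wider under the other, with differences of 0.37 ± 0.11 (edgeR adjusted p = 1) and 0.62 ± 0.11. Ppfibp1, a liprin of the cell cortex, was at 113 to 134 CPM and 91 to 110 CPM, and at 126 to 135 CPM and 93.9 to 112 CPM under the knockout label. Zfp264, Abca4 and Rasef also had separate ranges in this direction under both labels.

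Capn3 was among the 6 genes with opposite directions, a count within the shares over all genes. It encodes a muscle-specific calcium-dependent protease that binds titin. Under the wild-type label Capn3 was at 3.77, 3.7 and 5.17 CPM in females, against 2.88, 2.11, 3.04 and 1.97 CPM in males (0.76 ± 0.31, edgeR adjusted p = 1). Under the knockout label it was at 3.27, 0.948, 1.56 and 1.78 CPM and 5.35, 5.63, 4.48 and 6.47 CPM (-1.52 ± 0.32). Females were above males under the first label and below them under the second. The difference between labels was 2.31 ± 0.43, with an edgeR adjusted p = 0.906 and a DESeq2 adjusted p = 0.00101.

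**Figure D3:**
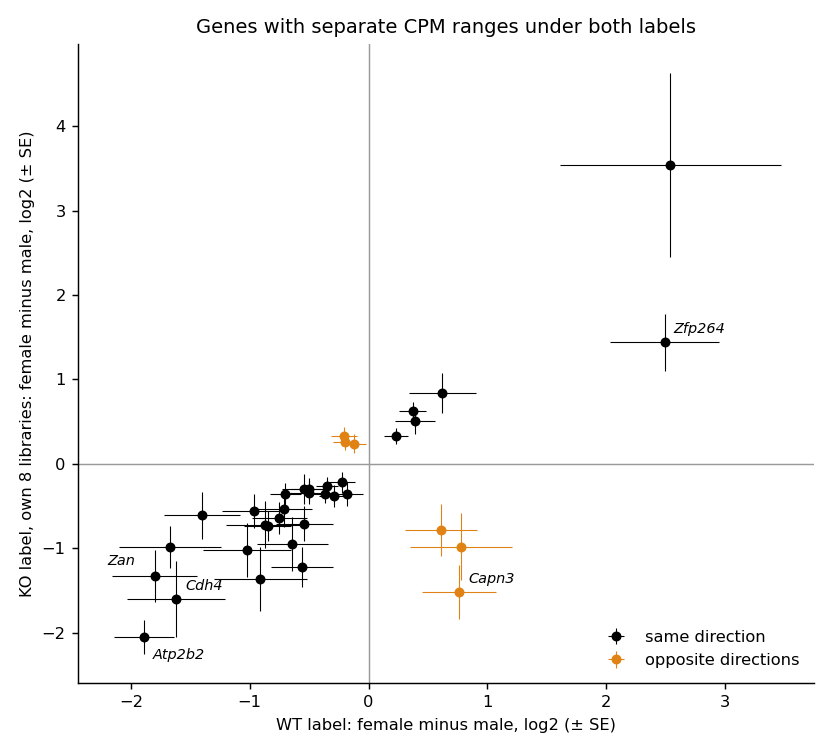
Female minus male differences (log2, with SE) of the 36 autosomal genes whose CPM ranges do not overlap between the sexes under both labels, wild-type label on the x axis and knockout label, fitted alone, on the y axis. Black marks 30 genes with the same direction and orange 6 with opposite directions, among them Capn3 at 0.76 and -1.52.

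Among the contractile genes, Myh6, the main myosin motor of the adult mouse ventricle, was at 5460, 3430 and 6290 CPM in females, against 5590, 3100, 3840 and 5570 CPM in males. Replicate 2 was the lowest library in each sex. The fetal and slow motor Myh7 was at 132 ± 54.9 CPM (SD, n = 3) and 112 ± 54.6 CPM (SD, n = 4). Ttn, the giant spring protein, was at 36100 ± 3300 CPM and 36500 ± 2430 CPM. These 3 ranges overlapped between the sexes. Of 21 tested sarcomere filament genes 14 had positive values (median 0.11), against 47.9% of all tested autosomal genes, but 9 of 21 (median -0.03) without the female replicate 3 and 1 of 21 under the knockout label. Of these genes 0 were called by edgeR, with 1 at an unadjusted p below 0.05. That gene was Actc1, cardiac actin, at 564, 671 and 803 CPM in females, against 517, 362, 523 and 558 CPM in males, with separate ranges and a difference of 0.48 ± 0.16 (adjusted p = 1). Under the knockout label its difference was -0.06 ± 0.12. Of 32 tested genes of titin, Z-disc and M-band, 16 had positive values (median 0.01), among them the Z-disc sensor Csrp3 at 0.29 ± 0.13 (adjusted p = 1).

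Among calcium handling genes, Ryr2, the release channel of the sarcoplasmic reticulum, was at 16400 ± 1520 CPM in females (SD, n = 3) and 16200 ± 3460 CPM in males (SD, n = 4). Its counterpart in reuptake, the pump Atp2a2, was at 4350 ± 380 CPM and 4210 ± 765 CPM, and the L-type channel Cacna1c at 13400 ± 262 CPM and 14700 ± 1590 CPM. The female and male ranges overlapped for all 3. The other tested plasma membrane pumps were Atp2b1, at 159 ± 10.6 CPM and 157 ± 28 CPM (0.03 ± 0.14), and Atp2b4, at 9.33 ± 11.7 CPM and 8.01 ± 10.4 CPM (-0.13 ± 0.43), neither called. The cardiac exchanger Slc8a1 had a difference of -0.01 ± 0.20. Of 37 tested members 13 had positive values (median -0.04) and 1, Atp2b2, was called. Casq2, the calcium store protein of the reticulum, was at 777 ± 106 CPM and 581 ± 83 CPM (0.42 ± 0.19, edgeR adjusted p = 1), and Cacna1d, a second L-type channel, had -0.37 ± 0.16 (adjusted p = 1).

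**Figure D4:**
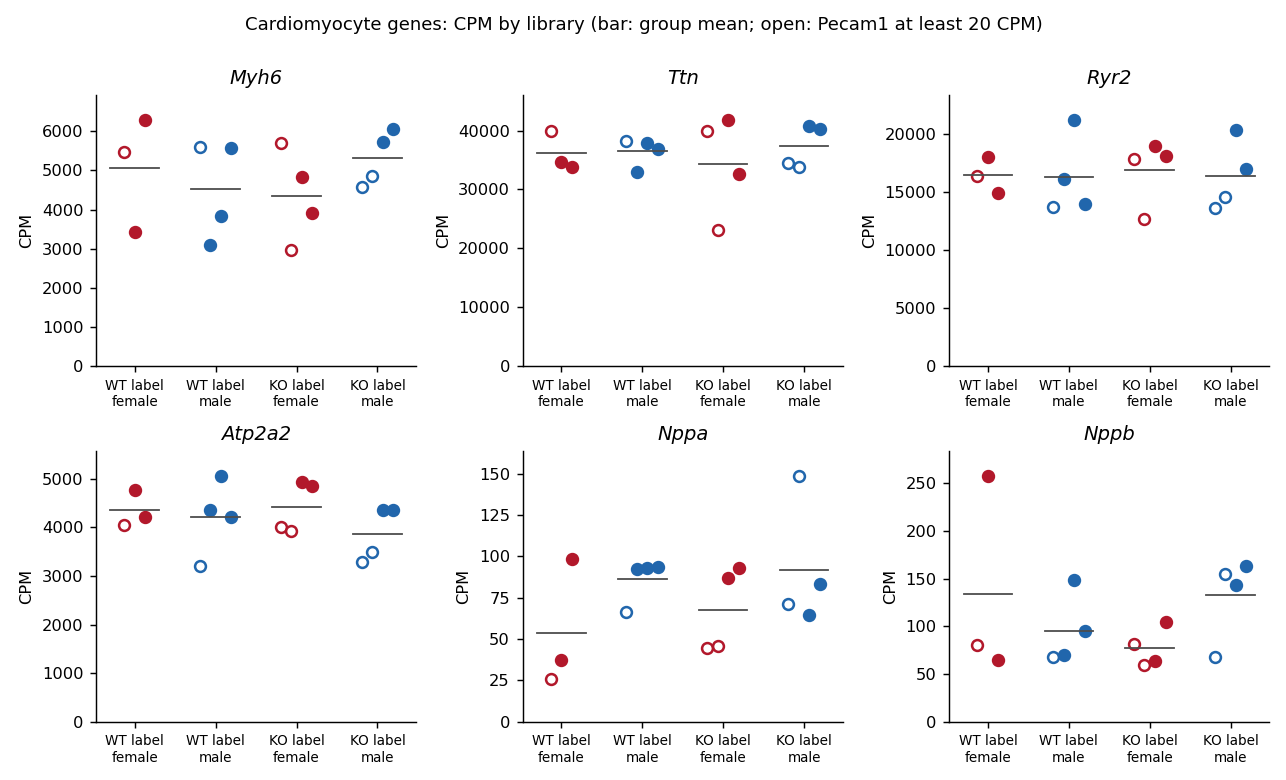
CPM of 6 cardiomyocyte genes in each library, by genotype label and sex, on linear axes that start at 0; bars are group means and open circles are libraries with Pecam1 of at least 20 CPM. Female and male ranges overlap in each panel under the wild-type label, and Myh6 lies at 3430 to 6290 CPM in females and 3100 to 5590 CPM in males.

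Among the 3 alpha1 adrenergic receptor genes, Adra1a and Adra1b had separate ranges, in opposite directions. Adra1a was at 72.7, 138 and 122 CPM in females, against 146, 196, 196 and 234 CPM in males (-0.79 ± 0.25, edgeR adjusted p = 1). Adra1b was at 113, 137 and 118 CPM in females, against 78.5, 103, 72.8 and 92.1 CPM in males (0.52 ± 0.14, adjusted p = 1). Females were thus lower for the first receptor and higher for the second. Adra1d, the third, was at 5.53 ± 0.588 CPM and 5.33 ± 0.324 CPM (0.06 ± 0.14, adjusted p = 1). Under the knockout label the differences were -0.66 ± 0.25 and 0.42 ± 0.14 (edgeR adjusted p = 0.339 and 0.313 in those 8 libraries), with overlapping ranges. For Adra1a the lowest library was replicate 1 in each sex, which carries the high Pecam1 level, and between these 2 libraries the ratio was -1.0 on the log2 scale. Adrb1, the main beta receptor gene of cardiomyocytes, was at 64.1 ± 6.51 CPM and 61.3 ± 5.75 CPM. Of 45 tested genes of adrenergic and cyclic nucleotide signalling 23 had positive values (median 0.02) and 0 were called, with 1 at an unadjusted p below 0.05 in each direction, Adra1b and Adra1a.

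No tested gene of the lists for excitation and coupling was called. Gja1, the main connexin of ventricular gap junctions, was at 935 ± 403 CPM in females (SD, n = 3) and 1010 ± 337 CPM in males (SD, n = 4). Of 37 tested potassium, sodium and pacemaker channels 15 had positive values (median -0.04). The smallest p-values were those of Kcnn2, a calcium-activated potassium channel (-0.33 ± 0.14), and Kcna4, a transient outward channel at 11.4, 11.8 and 10.1 CPM against 8.67, 9.94, 8.68 and 7.87 CPM (0.35 ± 0.18). Of 25 tested intercalated disc genes 14 were positive (median 0.03), with the scaffold gene Ank3 at -0.29 ± 0.11, and of 20 dystrophin-glycoprotein genes 10 were positive (median 0). By edgeR 1, 1 and 1 member had an unadjusted p below 0.05 in the 3 lists.

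Among stress genes, those of the natriuretic peptides were spread widely between the female libraries. Nppa, the atrial natriuretic peptide, was at 25.8, 37.5 and 98.3 CPM in females, against 66.7, 92.3, 93.1 and 93.9 CPM in males. One female library, replicate 3, was as high as the males. Nppb, the related ventricular peptide, was at 80.1, 258 and 64.4 CPM in females, against 68.3, 69.6, 149 and 95.2 CPM in males, highest in the female replicate 2. Of 29 tested fetal and stress-induced genes 12 were positive (median -0.06). Ddit4, a stress-induced inhibitor of mTOR, had separate ranges, at 6.45 to 9.25 CPM and 3.6 to 5.23 CPM (0.83 ± 0.32, edgeR adjusted p = 1). Ubiquitin ligase and autophagy genes were positive in 8 of 26 (median -0.09), and in 5 and 4 without the female replicate 1 and the male replicate 2. Fbxo32, the muscle ubiquitin ligase atrogin-1, was at 172, 193 and 140 CPM in females, against 198, 287, 245 and 275 CPM in males (-0.54 ± 0.19, adjusted p = 1). Gabarapl1, an autophagosome protein gene, was at 18 to 23.3 CPM and 23.9 to 29.5 CPM (-0.36 ± 0.18, adjusted p = 1).

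No gene of the lists for steroid signalling was called. Esr1, the oestrogen receptor alpha gene, was at 6.95, 1.53 and 1.82 CPM in females, against 7.78, 3.18, 1.65 and 1.34 CPM in males, highest in replicate 1 of each sex, where Pecam1 was high too. Nr3c1, the glucocorticoid receptor gene, was at 324 ± 82.9 CPM and 326 ± 74.5 CPM. Of 23 tested autosomal genes of steroid receptors and cofactors 12 were positive (median 0), with differences from -0.3 to 0.84 and 0 at an unadjusted p below 0.05. Among 24 tested genes known to answer to glucocorticoid, 13 were positive (median 0.03), and 8 (median -0.23) without the female replicate 3. Klf9, a glucocorticoid-induced transcription factor, was at 77.6, 73.8 and 79 CPM in females, against 88.7, 94.4, 98.3 and 92.9 CPM in males. The ranges were separate and the spread small (-0.29 ± 0.12, edgeR adjusted p = 1), but under the knockout label the value was 0.17 ± 0.11.

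Lists of energy metabolism had mostly positive values, and the counts moved when particular libraries were left out. Nuclear genes of oxidative phosphorylation had positive values in 52 of 53 tested members (median 0.11), with the complex III subunit Uqcrq at 0.29 ± 0.18 and the ATP synthase subunit Atp5e at 0.37 ± 0.18. By edgeR 0 were called and 0 had an unadjusted p below 0.05. By library the list's median level, relative to the mean of the 7, was -0.13, 0.23 and 0.10 in females and -0.04, -0.27, 0.17 and -0.01 in males. The highest female and the lowest male library are both replicate 2, which hold reads of the other sex. Without the female replicate 2 alone 40 of 53 were positive, without the male replicate 2 alone 39 of 53, and without all libraries that hold such reads 22 of 53 were positive (median -0.03). In the knockout-labelled libraries 16 of 53 were positive.

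The counts of other lists moved with single libraries too. Cytosolic ribosomal protein genes, which have many near-identical pseudogenes, were positive in 47 of 47 (median 0.19) and in 27 of 47 (median 0.03) when those libraries were dropped. Their level was 0.12, 0.25 and 0.04 in females and 0.18, -0.39, -0.09 and -0.07 in males, lowest in the male replicate 2. Fatty acid oxidation was positive in 31 of 42 (median 0.09) and in 20 of 42 without those libraries, and the tricarboxylic acid cycle in 17 of 22 (median 0.05) and in 8 of 22, with 10 of 22 without the male replicate 2 alone. Glycolysis was positive in 19 of 31 (median 0.05), and in 12 of 31 without the female replicate 3 or the male replicate 2. In these lists 0 members were called, and the sole unadjusted p-values below 0.05 were those of Bdh1 and of the ribosomal protein gene Rpl13a, the latter at 0.13 to 0.496 CPM.

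Interferon-stimulated and heat shock genes had mostly negative values, with 1 male library far above the others in each list. Of 33 tested interferon-stimulated genes 5 were positive (median -0.34), with 10, 3 and 8 without the female replicates 1 and 3 and the male replicate 1. Their level was 0.52, -0.45 and -0.25 in females and 1.28, -0.17, -0.61 and -0.28 in males, so that replicate 1 was the highest in each sex. Oas1a, an antiviral enzyme gene with close relatives, was at 1.79 CPM in the male replicate 1 and at 0.0236 to 0.233 CPM in the other 6 libraries. In the libraries with low Pecam1 alone 15 of 33 were positive (median -0.04). Of 25 leukocyte markers 20 were tested, and Itgam had 0 reads. The tested ones summed to 281 and 333 CPM in replicate 1 of females and males and to 126 to 194 CPM in the others. Rbpj held the most reads of these markers, 38971, ahead of F13a1 with 6692. The part of the leukocyte markers in the result was not tested. Of 33 heat shock genes 11 were positive (median -0.11), with 7 without the male replicate 2 and 27 of 33 (median 0.16) without the male replicate 3, where the list's level was 0.64 against -0.45 to 0.15 elsewhere. The chaperone gene Hsph1 was at 14.2 ± 8.97 CPM and 42.5 ± 60.5 CPM.

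Clock genes were positive in 7 of 25 (median -0.14), and in 12 without the female replicate 2 and 11 without the male replicate 1 or 4. The smallest p was that of the output factor Dbp, at 40.6, 13.2 and 23.4 CPM in females, against 51.8, 21.9, 47.2 and 67.1 CPM in males (-0.93 ± 0.39, edgeR adjusted p = 1). The ranges overlapped, and no time of collection is given. Of the other programme lists, immediate early genes were positive in 15 of 32, cell cycle in 12 of 35, imprinted genes in 18 of 28, cardiac transcription factors in 15 of 42, cholesterol and fatty acid synthesis in 12 of 32, abundant nuclear non-coding RNA in 14 of 18 and autosomal relatives of sex-linked dosage genes in 5 of 15. Single libraries decided some of these counts. Cell cycle was positive in 20 of 35 without the female replicate 1 or the male replicate 2 (medians 0.05 and 0.09), and cardiac transcription factors in 23 of 42 without the female replicate 2 or the male replicate 3. The relatives of dosage genes were positive in 8 without the female replicate 1 or 3 or the male replicate 3, and in 3 without the male replicate 2. Hypertrophy and insulin signalling was positive in 17 of 46 (median -0.05), and its level by library was -0.04, -0.06 and -0.05 in females and 0.03, 0.04, 0.03 and -0.01 in males, apart but by little. Without the libraries that hold reads of the other sex 23 of 46 were positive (median 0). Under the knockout label 31 of 46 were positive (median 0.11). The smallest p of this list under the wild-type label was that of the activin receptor gene Acvr2b (-0.50 ± 0.20, adjusted p = 1). None of the members of these lists was called by edgeR (0.00593% of all tested autosomal genes were), and 0 to 2 in each list had an unadjusted p below 0.05.

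**Figure D5:**
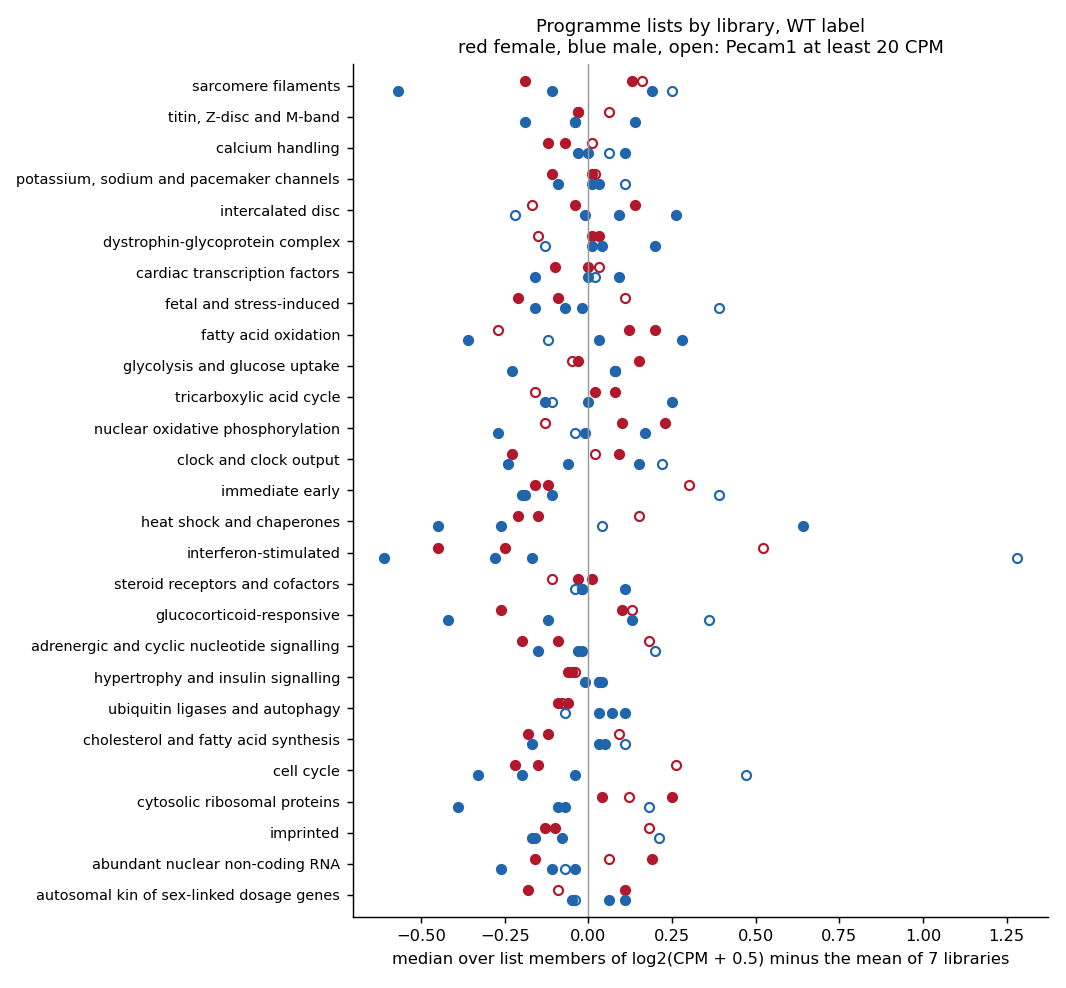
For each of 27 programme lists, the median over tested autosomal members of log2(CPM + 0.5) minus that gene's mean over the 7 libraries labelled wild type, for each female (red) and male (blue) library; open circles have Pecam1 of at least 20 CPM. Female and male points overlap in every list but hypertrophy and insulin signalling, and the interferon-stimulated list reaches 1.28 in the male replicate 1.

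Endothelial, fibroblast and epicardial markers were highest in replicate 1 of each sex. Endothelial markers, all 22 tested, summed to 624 and 626 CPM in replicate 1 of females and males and to 36.8 to 122 CPM in the other 5 libraries. Fibroblast markers, 26 of 28 tested with Dpep1 at 0 reads, summed to 2020 and 1630 CPM in replicate 1 and to 299 to 628 CPM elsewhere. Epicardial and mesothelial markers, 14 tested, summed to 122 and 86.8 CPM in replicate 1 and to 11 to 31 CPM elsewhere. Mural markers, 16 of 18 tested, summed to 726 to 759 CPM in females and 684 to 895 CPM in males. Abcc9 held the most reads of the mural genes, 161409, ahead of Des with 32088. By median level the mural list was also highest in replicate 1. It was at 0.56 in that female library and 0.82 in that male one, against -0.39 to -0.02 elsewhere. Schwann, adipocyte and erythroid markers were positive in all 10 tested members (median 0.54), with sums of 142 to 235 CPM in females and 118 to 205 CPM in males. Plin4 held the most reads of these genes, 47643. The list's median level was 0.93 and 0.38 in replicate 1 of females and males, against -0.52 to -0.11 elsewhere. Atrial and conduction markers were positive in 3 of 18 (median -0.15), in 5 without the female replicate 3 and in 6 without the female replicate 2 or the male replicate 1, 3 or 4, with sums of 1640 to 2240 CPM and 1730 to 2620 CPM. Kcnj3 and Pam held the most reads of the atrial and conduction genes, 294731 and 279092. The part of all these marker lists in the differences of single cardiomyocyte genes was not tested beyond the content term.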

How the data were processed

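Nuclei from ventricles were sorted for Pcm1 and sequenced after ribosomal RNA depletion with a directional kit, per the labels' protocols. The submitters' processing notes name STAR 2.5.3a, featureCounts 1.5.0 and the build GRCm38. The authors deposited raw counts per gene. The stated gene lengths equal the whole span of the gene in 100% of genes. The name of the deposited table points to paired-end, reverse-stranded counting, and no header states more. A smaller filtered table was not used.

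All 15 libraries were fitted together with edgeR 4.0.16 in R 4.3.3 (filterByExpr, TMM scaling, which also scales the CPM values, quasi-likelihood test, Benjamini-Hochberg adjustment over 17455 genes). The fit had a term for each label and sex and a term for other-cell content, high where Pecam1 was at least 20 CPM, with 10 residual degrees of freedom. Values are female minus male on the log2 scale with SE, and a threshold of 0.05 on the adjusted p defines a call. The procedure was also run on simulated counts. There the libraries labelled wild type shared the same mean for each gene, apart from differences put in. That simulation held no content difference between these libraries and no reads of the other sex, so it does not cover either. The libraries labelled wild type held 24.4 to 91.7 M counts, so that 3 reads correspond to 0.0327 to 0.123 CPM, which covers counting error only. No 2 replicates were near duplicates: chi-square per degree of freedom was 56.6 to 205.

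Named genes are every called gene, the 10 with the smallest p in each direction, in each list at most 2 members by smallest p, and a fixed set of check and level genes; other genes in the text, among them Casq2, Mtmr14, Adrb1, Adra1d, Hsph1, Atp2b1, Atp2b4 and Slc8a1, were named after their values were seen. The comparison and the gene lists were chosen with earlier results of these data known. Same-numbered females and males deviated together from their group means (correlations 0.906, 0.37 and 0.315), but so did some with different numbers (up to 0.724), and with the content term removed the same pairs gave 0.207, 0.341 and -0.501. The labels give no pairing. Alternatives used DESeq2 1.42.0, limma 3.58.1 (voom), sva 3.50.0, other scalings and filters, a replicate block and subsets of libraries. Promoter windows came from RefSeq (GRCm38.p6). A few single-gene values are not reported here.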

Additional observations from a re-analysis of the deposited data

Results flagged for a closer look

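The named genes were checked in the 4 males labelled wild type, and 10 of them also in each sex labelled knockout. Of these 106 groups of 4 libraries, 8 had a library far from the other 3, and chance gives about 1 in 20. In 6 of the 8 it was the male replicate 1 labelled wild type, 1 of the 2 libraries with high Pecam1. Pecam1 is itself among the 6, and its level there defined that split. In that library Pecam1 was at 47.6 CPM against 2.62 to 8.06 CPM in the other males, Oas1a, the antiviral gene, at 1.79 CPM against 0.0236 to 0.173 CPM, and Socs3, an inhibitor of cytokine signalling, at 0.991 CPM against 0.522 to 0.583 CPM. Scd1, a fatty acid desaturase gene, was at 4.87 CPM there against 0.475 to 1.09 CPM. Met, the receptor of hepatocyte growth factor, was at 39.4 CPM against 47.6 to 48.4 CPM, and Nppa at 66.7 CPM against 92.3 to 93.9 CPM. Bves, a membrane protein gene of cardiomyocytes, was at 160 CPM in the male replicate 3 against 105 to 113 CPM. Tmem150c was at 8.91 CPM in the male replicate 4 against 8.49 to 8.55 CPM, a small gap within a tight group.

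Capn3 was flagged because its ranges were separate in opposite directions under the wild-type and knockout labels. Its female minus male estimate was higher by 2.31 on the log2 scale under the wild-type label than under the knockout label. All females were above all males under the first and below them under the second. By edgeR the difference between labels was not called for Capn3 (adjusted p = 0.906), while the DESeq2 adjusted p was 0.00101.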

How the results depend on the processing

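Beside 0 genes called as higher in females and 1 as higher in males, DESeq2 gave 4 and 8 and 1 for the difference between labels (0 in the reported fit). Without a low-count filter, with 31571 genes tested, the counts were 30, 60 and 119. The count higher in males was 0 in the 7 libraries labelled wild type alone, in the 9 with low content, without the content term and with 1 surrogate variable, the last chosen after seeing the data. Leaving out 1 library each gave 0 to 1 genes higher in males, 0 higher in females and 0 for the difference between labels. With a replicate block Atp2b2 was at -2.05 (edgeR adjusted p = 0.0262) and the counts were 0, 1 and 0, so the block changed no call. Atp2b2 was negative in all 20 alternatives, with adjusted p from 2.48e-17 to 0.365. Of 2411 values of single genes and lists under alternatives 2366 kept direction and side of the threshold or moved less than the spread. Another 16 moved more, 20 passed a threshold not passed before and 9 no longer passed. Reversal was looked for only in single genes outside the check and level genes, and 0 of these reversed. For lists, check genes and level genes a change of sign within the spread counted as not moved. Some list medians did change sign. Without libraries holding reads of the other sex, oxidative phosphorylation went from 0.11 to -0.03 and fatty acid oxidation from 0.09 to -0.01. Counts of separate ranges under both labels were recomputed after seeing the data, leaving out 1 library. They were 26 to 42 higher in males, 7 to 13 higher in females and 11 to 22 opposite, of 16876 genes. The totals under the wild-type label rose too, from 315 to between 409 and 932 in males and from 175 to between 242 and 663 in females. The larger counts therefore do not show a larger overlap. At this depth a count of 0 allows up to 3 reads, or 0.0327 to 0.123 CPM.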
